A study of Mus musculus with 96 samples.

Results

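Neuronal H3K4me3 of Ogg1/Mutyh double-knockout (DKO) mice was compared with that of each single knockout, in hippocampal nuclei sorted as NeuN+ (neurons). The comparison used the 9 of 96 samples of the series that are H3K4me3 libraries of NeuN+ nuclei from DKO, Mutyh-/- or Ogg1-/- mice, with 3 libraries per genotype, and all 12628 H3K4me3 peaks of NeuN+ nuclei, which lie nearest to 11512 genes. The wild-type (WT) libraries of the same table, which hold 12 libraries with them, entered no contrast. All animals were C57BL/6N males, 6 months old and kept in their home cage. DKO mice lack both glycosylases, and each single-knockout mouse lacks 1 of the same genes, so a contrast of DKO with Mutyh-/- differs by Ogg1 in a background that lacks Mutyh, and a contrast of DKO with Ogg1-/- differs by Mutyh in a background that lacks Ogg1. DKO mice came from crosses of the single-knockout lines, and each preparation of nuclei pooled the hippocampi of several animals. The study describes the replicates as independent, and the labels do not tie a library to a pool of animals, so the p-values measure the spread between these libraries.

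Ogg1 removes 8-oxoguanine, a common product of guanine oxidation, when it is paired with cytosine, and Mutyh removes adenine that was paired with 8-oxoguanine during replication, so both start base excision repair of the same lesion from opposite strands. H3K4me3, trimethylation of lysine 4 of histone H3, marks the nucleosomes around transcription start sites, mostly at promoters rich in CpG dinucleotides, whose unmethylated form recruits the methyltransferase complexes of the SET1 and MLL families. NeuN, the product of Rbfox3, is a nuclear protein of most mature neurons, and sorting on it separates neurons from glia and vascular cells. In ChIP-seq, fragments of chromatin bound by an antibody are sequenced, and the number of reads in a peak measures the mark there, averaged over all nuclei of a sample. A lower value can therefore mean less of the mark per nucleus or fewer nuclei that carry it, and the assay cannot tell these apart.

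All 12628 peaks were 401 bp wide in GRCm38. The median peak held 35 CpG dinucleotides (interquartile range 24 to 45) and 66.6% of G and C, and 99.9% of the peaks had at least 1 CpG. Sequences are printed for the peaks on which the results turn, to show the CpG content of promoters that ranked among the first in these contrasts, of the Ogg1 promoter, and of the Tmem125 peak, a tandem repeat. The whole peaks held 33 CpG at Dusp8, 13 at Stum, 30 at Slc46a3, 20 at Atp1b1, 28 at Traip, 27 at Ogg1 and 11 at Tmem125. Each is a stretch of at most 160 bases of the peak that lies outside annotated exons, read 5′ to 3′ on the plus strand of GRCm38 (RefSeq), with CpG in capitals. The first stretch is from the Dusp8 peak and spans chr7:142094630-142094789, with 14 CpG.
Dusp8: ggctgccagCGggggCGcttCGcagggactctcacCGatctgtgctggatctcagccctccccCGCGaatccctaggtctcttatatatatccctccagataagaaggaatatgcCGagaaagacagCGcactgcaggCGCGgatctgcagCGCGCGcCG
The Stum stretch spans chr1:180482865-180483024 and has 6 CpG.
Stum: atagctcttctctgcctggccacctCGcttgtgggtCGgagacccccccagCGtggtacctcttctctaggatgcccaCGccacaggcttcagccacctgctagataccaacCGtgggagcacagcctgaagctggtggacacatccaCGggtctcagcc
The Slc46a3 stretch spans chr5:147894816-147894859, just upstream of the annotated start of a gene on the minus strand, and has 3 CpG.
Slc46a3: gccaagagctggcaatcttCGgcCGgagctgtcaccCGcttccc
The Atp1b1 stretch spans chr1:164457419-164457578 and has 5 CpG.
Atp1b1: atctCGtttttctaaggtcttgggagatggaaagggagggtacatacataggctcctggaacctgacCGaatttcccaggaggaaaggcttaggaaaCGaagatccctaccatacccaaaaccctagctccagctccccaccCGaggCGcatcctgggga
The Traip stretch, in an intron, spans chr9:107951173-107951274 and has 7 CpG.
Traip: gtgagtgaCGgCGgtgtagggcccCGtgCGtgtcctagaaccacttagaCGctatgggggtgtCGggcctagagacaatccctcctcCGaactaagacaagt
The Ogg1 stretch spans chr6:113326823-113326971, ends at the base before the annotated start of Ogg1, and has 14 CpG.
Ogg1: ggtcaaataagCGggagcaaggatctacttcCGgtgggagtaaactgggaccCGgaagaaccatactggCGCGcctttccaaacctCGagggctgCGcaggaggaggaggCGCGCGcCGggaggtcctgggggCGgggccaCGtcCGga
The Tmem125 stretch spans chr4:118548272-118548431 and has 3 CpG.
Tmem125: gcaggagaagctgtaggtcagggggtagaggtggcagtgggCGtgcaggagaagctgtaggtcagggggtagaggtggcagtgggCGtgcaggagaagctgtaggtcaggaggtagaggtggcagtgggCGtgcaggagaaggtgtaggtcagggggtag
Shifted by 88 bases, the Tmem125 peak matched itself at 95.8% of its bases. Only 6 of the 12628 peaks (0.0475%) reached 80% identity at any shift of 20 to 150 bases, although 0% of the Tmem125 peak was marked as a repeat in the reference.

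Reads in peaks per library were 96023, 420782 and 427278 in DKO, 217669, 295273 and 378371 in Mutyh-/-, and 263640, 205257 and 548706 in Ogg1-/- (replicates 1 to 3). Values are given as normalised reads, that is, reads of a peak scaled to a common library size by factors of the trimmed mean of M values (TMM). DKO replicate 1 stood apart in depth. It had a median of 7 reads per peak against 16 to 43 in the other libraries, 531 peaks (4.20%) without a read, and 1 read there counted as 3.32 normalised reads against 0.574 to 1.54 elsewhere. Its median Spearman correlation over peaks with the other 8 libraries was 0.470, against 0.550 to 0.670 for the others. Total reads in peaks did not separate the genotypes, with 314694 ± 189403 (SD, n = 3) in DKO, 297104 ± 80367 in Mutyh-/- and 339201 ± 183770 in Ogg1-/- (exact two-sided permutation tests, p = 0.8 and p = 1, both adjusted p = 1, smallest possible p = 0.1). Markers of neurons were present in all 9 libraries: 12 of 13 genes had a peak, and their 16 peaks summed to 331 to 338 normalised reads in DKO, 309 to 337 in Mutyh-/- and 327 to 341 in Ogg1-/-. Of 29 markers of non-neuronal cells, 5 had a peak, Slc1a2, Slc1a3, Mbp and Kdr among them, while the defining genes Gfap, Aqp4, Mog, Olig1, Olig2, Sox10, Cx3cr1, Csf1r and Cldn5 had none. The 6 peaks of these 5 genes summed to 139 to 166 normalised reads in DKO, 136 to 157 in Mutyh-/- and 90.6 to 146 in Ogg1-/-.

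Each peak was assigned to its nearest gene by the authors. The thresholds of a differentially enriched region (DER) are those of the study, which took p from edgeR, whereas p here is from limma. A peak was a DER when its log2 fold change exceeded 0.5 in either direction with p below 0.05 before adjustment, in a limma fit of log2(normalised reads + 1) over the 9 libraries. Against Mutyh-/-, 535 of 12628 peaks (4.24%) were DERs, of which 240 (1.9%) were higher and 295 (2.34%) lower in DKO. Against Ogg1-/-, 553 peaks (4.38%) were DERs, 256 (2.03%) higher and 297 (2.35%) lower in DKO. Against the mean of both single knockouts, 597 peaks (4.73%) were DERs, with 193 (1.53%) higher and 404 (3.2%) lower in DKO. With edgeR 442 peaks met the thresholds against Mutyh-/- and 449 against Ogg1-/-, and 332 and 341 of them were also DERs with limma. At an unadjusted p under 0.05 alone there were 542, 562 and 644 peaks. If genotype had no effect at any peak, a share of about 0.05 would still pass this threshold. Of the 12628 peaks, 542 and 562 are a smaller share than this, and 644, against the mean of both, is a slightly larger one. DERs must also pass the fold change threshold, so without any effect their share would be lower than 0.05, by an amount not computed here. Numbers this near to that share do not by themselves show an effect of genotype. After Benjamini-Hochberg adjustment limma gave 0 peaks with an adjusted p under 0.05 in each contrast, edgeR also gave 0 in each, and DESeq2 gave 0, 6 and 0. The smallest adjusted p of limma was 0.896 against Mutyh-/-, 0.886 against Ogg1-/- and 0.841 against the mean of both, so no adjusted p is given for single peaks: each is at least as large. The peak with the smallest p was Dusp8 in the first and the third of these and Atp1b1 in the second. On the log2(normalised reads + 1) scale the added 1 shrinks differences between low values, whereas 1 library without a read can enlarge the difference of a low peak, as at Ogg1 and Pax3. The 3 contrasts share the DKO libraries, so their values at a peak are not independent of each other.

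**Figure D1:**
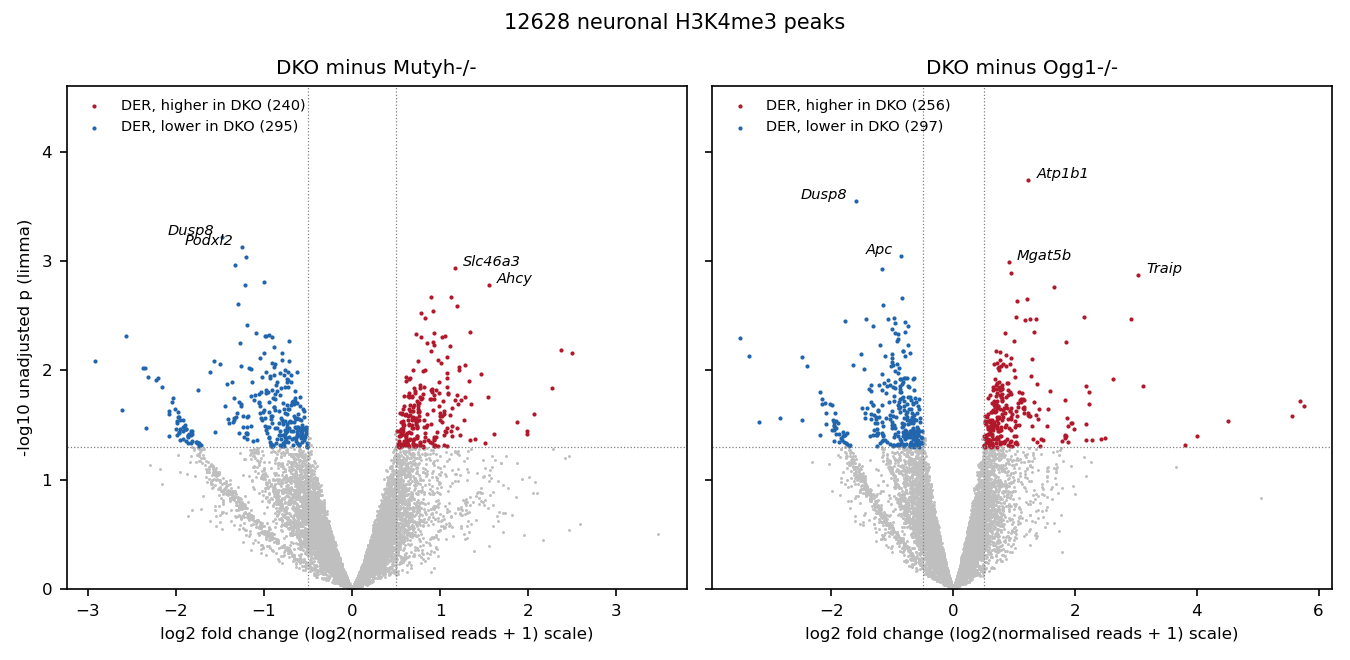
Log2 fold change (x axis, log2(normalised reads + 1) scale) against -log10 of the unadjusted limma p (y axis) for 12628 peaks, DKO minus Mutyh-/- at the left and DKO minus Ogg1-/- at the right, with dotted lines at the DER thresholds. DERs higher in DKO (240 and 256) and lower in DKO (295 and 297) flank the bulk of the peaks, and Dusp8 and Atp1b1 have the smallest p of the left and right panel.

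Across all peaks the contrasts were centred near 0, with a median log2 fold change of -0.02 against either single knockout and an interquartile range of -0.30 to 0.24. All 3 DKO libraries lay on one side of all 3 Mutyh-/- libraries at 1278 peaks (10.1%), 605 (4.79%) with DKO higher and 673 (5.33%) with DKO lower. They lay on one side of all 3 Ogg1-/- libraries at 1243 peaks (9.84%), 613 (4.85%) with DKO higher and 630 (4.99%) with DKO lower. They lay outside all 6 single-knockout libraries at 300 peaks (2.38%), above them at 157 (1.24%) and below them at 143 (1.13%). Of all ways to label 3 libraries against 3, a share of 0.1 separates the groups, close to the 10.1% and 9.84% found. With 3 against 6 a smaller share of the ways separates the groups, and the 2.38% found is close to that share too. Groups that do not overlap at a peak are thus by themselves no sign of a difference between genotypes. Of the DERs, 377 against Mutyh-/- and 373 against Ogg1-/- had groups that did not overlap and a mean of at least 10 normalised reads. Against the mean of both, 148 DERs had this mean and all 3 DKO libraries outside all 6 single-knockout libraries. Where the call of a peak picked by its rank, by its place near Ogg1 or Mutyh or as one of the first 3 of a gene list was lost when 1 library was left out, the log2 fold change without that library is given in brackets, and further DERs of the gene lists are summarised after the lists. The peaks named next were taken from the 10 higher and 10 lower in DKO that ranked first by p among these DERs in each contrast. Their rank and the lack of overlap are thus how they were picked. For peaks picked against the mean of both, DKO lying outside all 6 libraries was part of the rule.

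Promoters that ranked among the first by p and were lower in DKO than in both single knockouts included those of Dusp8, Stum and Podxl2. Dusp8 encodes a dual-specificity phosphatase that inactivates stress-activated MAP kinases. Its peak, chr7:142094510-142094910, had 6.64, 14.9 and 19.5 normalised reads in DKO, 45.9, 26.6 and 39.9 in Mutyh-/- and 38.4, 46.1 and 36.2 in Ogg1-/-. The DKO values rest on 2, 20 and 26 reads, and every DKO library lay below every single-knockout library. For Dusp8 the log2 fold change was -1.47 (SE 0.35, a DER) against Mutyh-/- and -1.60 (SE 0.35, a DER) against Ogg1-/-. Stum encodes a membrane protein related to a Drosophila gene needed for mechanosensation. The Stum peak, chr1:180482763-180483163, had 9.97, 15.7 and 12.7 normalised reads in DKO, 29.1, 29.8 and 32.4 in Mutyh-/- and 28.8, 27.7 and 32.7 in Ogg1-/-. The 6 single-knockout libraries lay close together, all above the highest DKO library. For Stum the log2 fold change was -1.21 (SE 0.30, a DER) against Mutyh-/- and -1.17 (SE 0.30, a DER) against Ogg1-/-. Podxl2 encodes endoglycan, a sialomucin of the CD34 family. The Podxl2 peak, chr6:88874343-88874743, held 9.97, 15.7 and 21.7 normalised reads in DKO, 33.7, 36.1 and 42.4 in Mutyh-/- and 27.6, 27.7 and 31 in Ogg1-/-. DKO was again below all 6 libraries, and Mutyh-/- was above Ogg1-/- with no overlap. For Podxl2 the log2 fold change was -1.25 (SE 0.30, a DER) against Mutyh-/- and -0.89 (SE 0.30, a DER) against Ogg1-/-.

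Further promoters where all DKO libraries lay below all 6 single-knockout libraries belonged to Mfsd4a, Frmd4b, Tctn2, Apc, Cyth3 and Fdps. The promoter of Mfsd4a, a transporter-like membrane protein, had 13.3, 17.1 and 21 normalised reads in DKO, 50.5, 44.7 and 29.1 in Mutyh-/- and 24, 50.7 and 26.4 in Ogg1-/-. The 3 highest values were those of Mutyh-/- replicates 1 and 2 and Ogg1-/- replicate 2. For Mfsd4a the log2 fold change was -1.21 (SE 0.32, a DER) against Mutyh-/- and -0.88 (SE 0.32, a DER) against Ogg1-/-. The promoter of Frmd4b, which encodes a FERM-domain scaffold, had 13.3, 8.20 and 14.2 normalised reads in DKO, 29.1, 30.8 and 29.9 in Mutyh-/- and 28.8, 29.2 and 15.5 in Ogg1-/-. Ogg1-/- replicate 3 lay just above the highest DKO library, and the other 5 single-knockout libraries lay well above it. For Frmd4b the log2 fold change was -1.30 (SE 0.36, a DER) against Mutyh-/- and -0.96 (SE 0.36, a DER) against Ogg1-/-. Tctn2, whose product is part of the transition zone of cilia, held 13.3, 21.6 and 12 normalised reads in DKO, 26, 34 and 25.8 in Mutyh-/- and 32.4, 41.5 and 26.4 in Ogg1-/-. The groups did not overlap in either contrast. For Tctn2 the log2 fold change was -0.86 (SE 0.31, a DER) against Mutyh-/- and -1.07 (SE 0.31, a DER) against Ogg1-/-. The promoter of Apc, the scaffold that keeps beta-catenin low and binds microtubules, had 26.6, 35.8 and 30.0 normalised reads in DKO, 38.3, 41.5 and 42.4 in Mutyh-/- and 58.8, 58.4 and 51.1 in Ogg1-/-. Mutyh-/- lay between DKO and Ogg1-/-, and the 3 genotypes did not overlap. For Apc the log2 fold change was -0.40 (SE 0.21, no DER) against Mutyh-/- and -0.85 (SE 0.21, a DER) against Ogg1-/-. Fdps, an enzyme of isoprenoid and cholesterol synthesis, had 9.97, 14.2 and 14.2 normalised reads in DKO, 32.2, 42.5 and 20.0 in Mutyh-/- and 25.2, 20.0 and 28.7 in Ogg1-/-. DKO was below every library of both single knockouts. For Fdps the log2 fold change was -1.19 (SE 0.35, a DER) against Mutyh-/- and -0.90 (SE 0.35, a DER) against Ogg1-/-. Cyth3, which encodes an exchange factor for ARF GTPases, held 3.32, 22.4 and 28.5 normalised reads in DKO, 30.6, 46.8 and 43.2 in Mutyh-/- and 37.2, 43 and 36.7 in Ogg1-/-. DKO replicate 1, with 1 read, was far below the other 2 DKO libraries, which were also under all 6 single-knockout libraries. For Cyth3 the log2 fold change was -1.5 (SE 0.50, a DER) against Mutyh-/- and -1.47 (SE 0.50, a DER) against Ogg1-/-. Against the mean of both single knockouts, the Cyth3 value was -1.48 with all libraries and -0.62 without DKO replicate 1, still a DER. Tctn2 was no DER against Mutyh-/- without DKO replicate 3 (-0.71) or Mutyh-/- replicate 2 (-0.74). Against Ogg1-/-, Frmd4b was no DER without DKO replicate 2 or Ogg1-/- replicate 1 or 2 (-0.83 to -0.73), Mfsd4a without Ogg1-/- replicate 2 (-0.55), and Fdps without Ogg1-/- replicate 1 or 3 (-0.87 and -0.78).

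In the other direction, all DKO libraries lay above all single-knockout libraries at the promoters of Slc46a3, Atp1b1, Borcs6 and Hipk1. Slc46a3 encodes a transporter of the lysosomal membrane. Its peak, chr5:147894459-147894859, had 46.5, 44.7 and 30.7 normalised reads in DKO, 15.3, 21.3 and 15.8 in Mutyh-/- and 19.2, 29.2 and 20.7 in Ogg1-/-. The lowest DKO library, replicate 3, lay just above the highest single-knockout library, Ogg1-/- replicate 2. For Slc46a3 the log2 fold change was 1.17 (SE 0.30, a DER) against Mutyh-/- and 0.79 (SE 0.30, a DER) against Ogg1-/-. Against Ogg1-/- it was no DER without DKO replicate 1 or 2 or Ogg1-/- replicate 1 (0.68 to 0.71). Borcs6 encodes a subunit of BORC, which couples lysosomes to kinesin. The Borcs6 peak, chr11:69059865-69060265, had 43.2, 47.7 and 37.5 normalised reads in DKO, 23, 25.5 and 11.6 in Mutyh-/- and 19.2, 27.7 and 25.8 in Ogg1-/-. Every DKO library lay above every single-knockout library. For Borcs6 the log2 fold change was 1.12 (SE 0.31, a DER) against Mutyh-/- and 0.80 (SE 0.31, a DER) against Ogg1-/-. Without DKO replicate 2 or Ogg1-/- replicate 1 it was no DER against Ogg1-/- (0.72 and 0.65). Hipk1 encodes a nuclear kinase that acts on transcription factors. The Hipk1 peak, chr3:103790797-103791197, held 39.9, 47 and 45.7 normalised reads in DKO, 26, 24.5 and 28.3 in Mutyh-/- and 32.4, 27.7 and 31 in Ogg1-/-. DKO lay above all 6 single-knockout libraries. For Hipk1 the log2 fold change was 0.73 (SE 0.22, a DER) against Mutyh-/- and 0.53 (SE 0.22, a DER) against Ogg1-/-. Against Ogg1-/- Hipk1 was no DER without DKO replicate 2 or 3 or without Ogg1-/- replicate 2 or 3 (0.47 to 0.54).

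Atp1b1 encodes the beta 1 subunit of the sodium-potassium pump, which restores ion gradients after firing. Its peak, chr1:164457299-164457699, had 53.2, 36.5 and 40.4 normalised reads in DKO, 33.7, 34 and 25.8 in Mutyh-/- and 16.8, 16.9 and 19.5 in Ogg1-/-. The 3 genotypes did not overlap, with Mutyh-/- between DKO and Ogg1-/-. For Atp1b1 the log2 fold change was 0.46 (SE 0.26, no DER) against Mutyh-/- and 1.23 (SE 0.26, a DER) against Ogg1-/-. It ranked first by p among all peaks against Ogg1-/-. The promoter of Mgat5b, a glycosyltransferase of the brain, had 46.5, 42.5 and 42.7 normalised reads in DKO, 39.8, 30.8 and 32.4 in Mutyh-/- and 21.6, 26.1 and 21.2 in Ogg1-/-. The same order of genotypes without overlap was seen. For Mgat5b the log2 fold change was 0.35 (SE 0.23, no DER) against Mutyh-/- and 0.91 (SE 0.23, a DER) against Ogg1-/-. Gadd45a, a gene induced by DNA damage and growth arrest, held 56.5, 46.2 and 44.2 normalised reads in DKO, 35.2, 30.8 and 26.6 in Mutyh-/- and 26.4, 36.9 and 32.1 in Ogg1-/-. DKO was above all 6 single-knockout libraries. For Gadd45a the log2 fold change was 0.65 (SE 0.23, a DER) against Mutyh-/- and 0.61 (SE 0.23, a DER) against Ogg1-/-. Without DKO replicate 1 or Ogg1-/- replicate 1 Gadd45a was no DER against Ogg1-/- (0.51 and 0.49). Sez6l2, which encodes a neuronal membrane protein, had 33.2, 33.5 and 31.5 normalised reads in DKO, 15.3, 21.3 and 12.5 in Mutyh-/- and 12, 15.4 and 24.1 in Ogg1-/-. The DKO values lay close together and above all 6 others. For Sez6l2 the log2 fold change was 0.99 (SE 0.35, a DER) against Mutyh-/- and 0.95 (SE 0.35, a DER) against Ogg1-/-. The call of Sez6l2 against Ogg1-/- was lost without Ogg1-/- replicate 1 (0.74). The same separation held for Pdxp (pyridoxal phosphatase, which also acts on cofilin), Mrpl36 (a mitochondrial ribosomal protein) and Ift52 (intraflagellar transport). For Pdxp the log2 fold change was 0.90 in both contrasts (SE 0.33), and the calls were lost without Mutyh-/- replicate 2 (0.71) and Ogg1-/- replicate 2 (0.70). For Mrpl36 it was 0.66 (SE 0.26) and 0.71, the first lost without DKO replicate 1 (0.59) or Mutyh-/- replicate 3 (0.57). Ift52 was a DER against Mutyh-/- (0.92, SE 0.26) and not against Ogg1-/- (0.48).

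**Figure D2:**
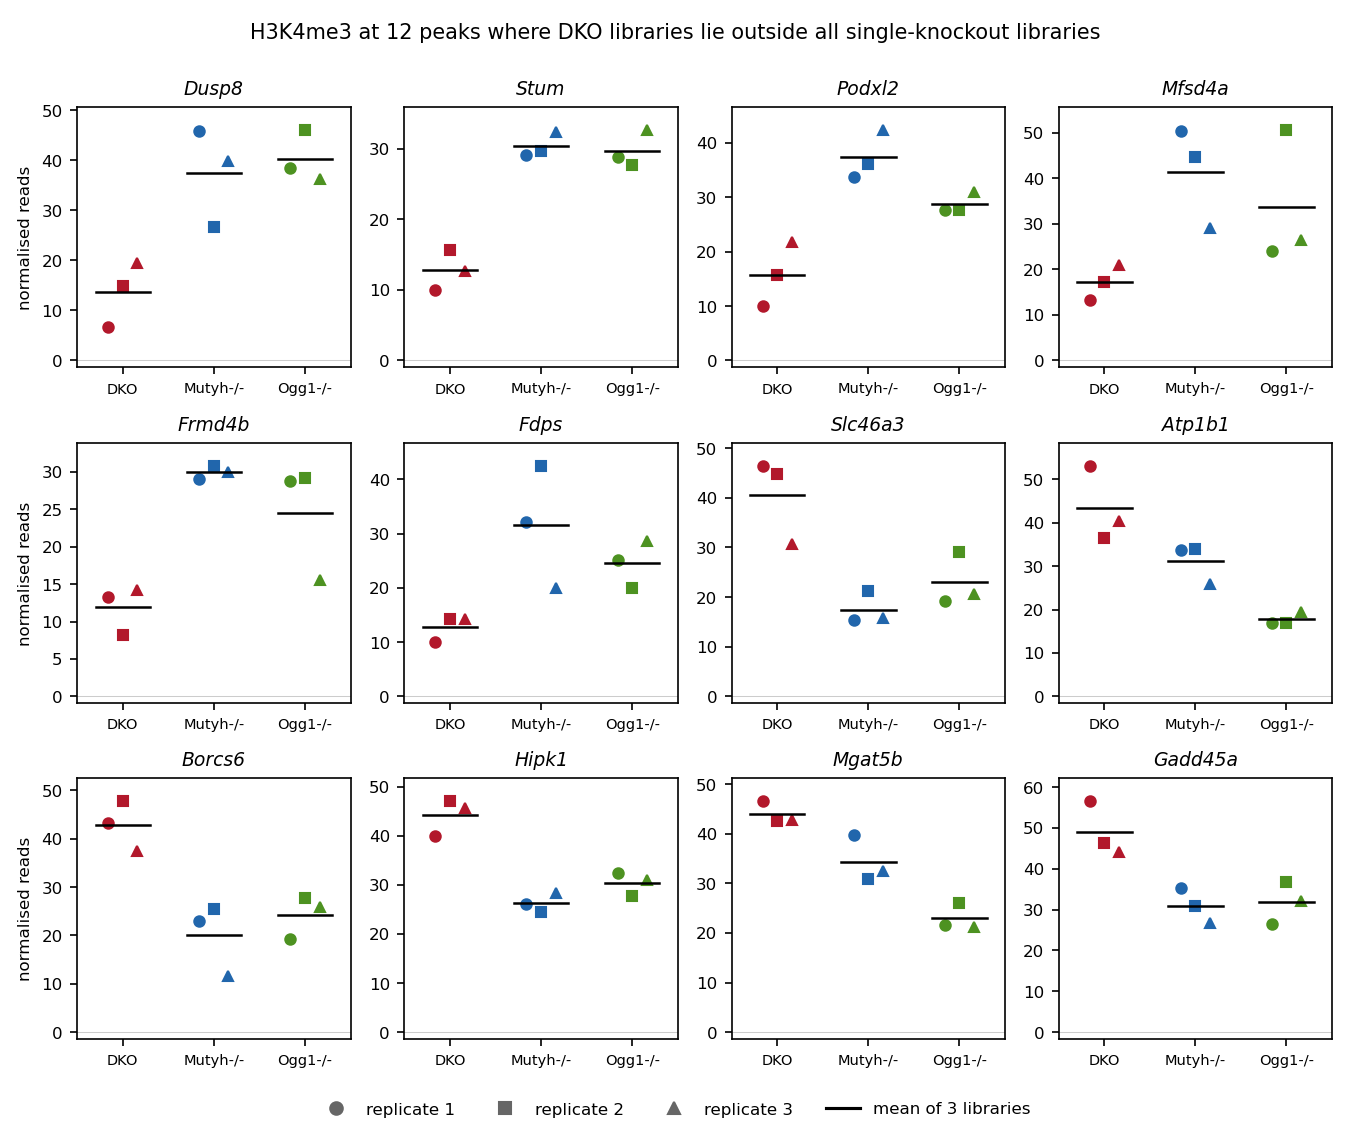
Normalised reads (y axis) of the 9 libraries by genotype (x axis) at 6 of the peaks lower and 6 of the peaks higher in DKO that ranked first by p against the mean of both single knockouts; points are libraries, their shape gives the replicate, and lines are means of 3 libraries. At Stum the 6 single-knockout libraries sit between 27.7 and 32.7 and the 3 DKO libraries between 9.97 and 15.7, whereas at Atp1b1 Mutyh-/- sits between DKO and Ogg1-/-.

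Other leading peaks against Mutyh-/-, among them those of Ahcy, Ctnnbl1, Uqcrc2 and Gemin5, were DERs in that contrast and not against Ogg1-/-. Ahcy encodes the hydrolase that clears S-adenosylhomocysteine, the product that inhibits methyltransferases, histone methyltransferases included. Its promoter, chr2:155074044-155074444, had 26.6, 19.4 and 27 normalised reads in DKO, 6.12, 6.38 and 10.8 in Mutyh-/- and 22.8, 18.4 and 29.3 in Ogg1-/-. The Mutyh-/- libraries were the 3 lowest of the 9. For Ahcy the log2 fold change was 1.55 (SE 0.41, a DER) against Mutyh-/- and 0.06 (SE 0.41, no DER) against Ogg1-/-. Ctnnbl1, which encodes a protein of the spliceosome, held 19.9, 22.4 and 22.5 normalised reads in DKO, 7.65, 9.57 and 6.65 in Mutyh-/- and 22.8, 21.5 and 17.8 in Ogg1-/-. Again Mutyh-/- was below all libraries of the other genotypes. For Ctnnbl1 the log2 fold change was 1.35 (SE 0.41, a DER) against Mutyh-/- and 0.06 (SE 0.41, no DER) against Ogg1-/-. The promoter of Uqcrc2, a core subunit of respiratory complex III, had 39.9, 39.5 and 44.9 normalised reads in DKO, 23, 19.1 and 23.3 in Mutyh-/- and 32.4, 49.2 and 30.4 in Ogg1-/-. Each DKO library exceeded each Mutyh-/- library, and Ogg1-/- overlapped DKO. For Uqcrc2 the log2 fold change was 0.90 (SE 0.25, a DER) against Mutyh-/- and 0.18 (SE 0.25, no DER) against Ogg1-/-. Naca, a subunit of the complex that binds nascent peptides at the ribosome, and Mir7036b had log2 fold changes of 0.83 (SE 0.24) and 0.78 (SE 0.23) against Mutyh-/-, and of 0.30 and 0.19 against Ogg1-/-. Agbl4, which encodes a carboxypeptidase that trims glutamate chains from tubulin, and Lca5l, related to the ciliary gene Lca5, were higher in DKO than in Mutyh-/- by 1.19 (SE 0.34) and 0.93 (SE 0.28). Gemin5, whose product binds small nuclear RNAs for the SMN complex, had 16.6, 22.4 and 21 normalised reads in DKO, 39.8, 43.6 and 38.3 in Mutyh-/- and 33.6, 21.5 and 31.6 in Ogg1-/-. Mutyh-/- lay above all other libraries and Ogg1-/- overlapped DKO. For Gemin5 the log2 fold change was -0.99 (SE 0.26, a DER) against Mutyh-/- and -0.5 (SE 0.26, no DER) against Ogg1-/-. A distal peak 84764 bp from Zfp947, a zinc finger gene, held 19.9, 17.9 and 24.7 normalised reads in DKO, 55.1, 40.4 and 29.9 in Mutyh-/- and 21.6, 30.7 and 35 in Ogg1-/-. DKO lay below Mutyh-/- and overlapped Ogg1-/-. For Zfp947 the log2 fold change was -0.94 (SE 0.29, a DER) against Mutyh-/- and -0.45 (SE 0.29, no DER) against Ogg1-/-.

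Against Ogg1-/-, further leading peaks lay at Traip, Slx4, Ndufb2 and Elof1, which were no DERs against Mutyh-/-. Traip encodes a ubiquitin ligase that acts on stalled replication machinery, and Slx4 the scaffold of nucleases that cut branched DNA. The Traip peak, chr9:107950874-107951274, had 23.3, 16.4 and 18.7 normalised reads in DKO, 6.12, 19.1 and 10.8 in Mutyh-/- and 6.00, 0 and 1.15 in Ogg1-/-. The Ogg1-/- values were 5, 0 and 2 reads, and Mutyh-/- ranged from near Ogg1-/- to within DKO. For Traip the log2 fold change was 0.77 (SE 0.79, no DER) against Mutyh-/- and 3.04 (SE 0.79, a DER) against Ogg1-/-. The peak upstream of Slx4, chr16:4003352-4003752, had 39.9, 38 and 39 normalised reads in DKO, 32.2, 37.2 and 26.6 in Mutyh-/- and 21.6, 20.0 and 17.8 in Ogg1-/-. The DKO libraries lay close together, above all Ogg1-/- libraries, and all 3 exceeded all Mutyh-/- libraries. For Slx4 the log2 fold change was 0.29 (SE 0.24, no DER) against Mutyh-/- and 0.95 (SE 0.24, a DER) against Ogg1-/-. The promoter of Ndufb2, a subunit of respiratory complex I, held 36.5, 30.6 and 40.4 normalised reads in DKO, 39.8, 35.1 and 29.9 in Mutyh-/- and 19.2, 7.68 and 21.2 in Ogg1-/-. Ogg1-/- was below all 6 other libraries. For Ndufb2 the log2 fold change was 0.04 (SE 0.34, no DER) against Mutyh-/- and 1.22 (SE 0.34, a DER) against Ogg1-/-. Elof1, a transcription elongation factor that also acts in transcription-coupled repair, had 43.2, 26.1 and 34.5 normalised reads in DKO, 27.6, 22.3 and 27.4 in Mutyh-/- and 13.2, 7.68 and 23.5 in Ogg1-/-. All DKO libraries lay above all Ogg1-/- libraries, and Mutyh-/- overlapped both. For Elof1 the log2 fold change was 0.39 (SE 0.37, no DER) against Mutyh-/- and 1.27 (SE 0.37, a DER) against Ogg1-/-. Ogfod2, Ifnar1 (a receptor chain for type I interferon), Vps25 (ESCRT-II) and the distal Zfp239 peak were higher in DKO than in Ogg1-/- by 1.65 (SE 0.44), 1.06 (SE 0.29), 1.04 (SE 0.30) and 2.14 (SE 0.62). Of these, Ifnar1 was also a DER against Mutyh-/- (0.78, SE 0.29), a call lost without DKO replicate 1 (0.58) or Mutyh-/- replicate 2 or 3 (0.56 and 0.70).

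Among the peaks lower in DKO than in Ogg1-/-, Kalrn encodes kalirin, an exchange factor for small GTPases that shapes dendritic spines. Its peak, chr16:34573004-34573404, had 23.3, 26.1 and 28.5 normalised reads in DKO, 27.6, 33 and 37.4 in Mutyh-/- and 40.8, 53.8 and 47.1 in Ogg1-/-. The lowest Ogg1-/- library was above all other libraries, and Mutyh-/- overlapped DKO. For Kalrn the log2 fold change was -0.31 (SE 0.23, no DER) against Mutyh-/- and -0.84 (SE 0.23, a DER) against Ogg1-/-. The promoter of Eif1, a translation initiation factor that sets the fidelity of the start codon, held 3.32, 5.22 and 16.5 normalised reads in DKO, 27.6, 24.5 and 15.8 in Mutyh-/- and 18, 36.9 and 25.3 in Ogg1-/-. DKO replicates 1 and 2 were the lowest of the 9 libraries, and replicate 3 was in the range of Mutyh-/-. For Eif1 the log2 fold change was -1.57 (SE 0.52, a DER) against Mutyh-/- and -1.78 (SE 0.52, a DER) against Ogg1-/-. Tnfaip8l3, which encodes a phosphoinositide transfer protein, had 9.97, 11.2 and 20.2 normalised reads in DKO, 21.4, 28.7 and 12.5 in Mutyh-/- and 42, 55.3 and 21.8 in Ogg1-/-. DKO replicate 3 lay just below Ogg1-/- replicate 3, the lowest of that genotype. For Tnfaip8l3 the log2 fold change was -0.55 (SE 0.42, no DER) against Mutyh-/- and -1.43 (SE 0.42, a DER) against Ogg1-/-. The other leading peaks lower than in Ogg1-/- were at Slc35e4, E130114P18Rik and Edrf1, with log2 fold changes of -1.16 (SE 0.33), -0.98 (SE 0.29) and -0.79 (SE 0.23). Slc35e4 was also a DER against Mutyh-/- (-0.74, SE 0.33), a call that was lost without DKO replicate 1 (-0.44) or DKO replicate 2 (-0.70) and without each of the Mutyh-/- libraries in turn (-0.80 to -0.65). Each of the 20 leading peaks of either contrast was still a DER in that contrast when any single library was left out. They were picked by small p and groups without overlap in the same libraries, so this follows largely from the selection.

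**Figure D3:**
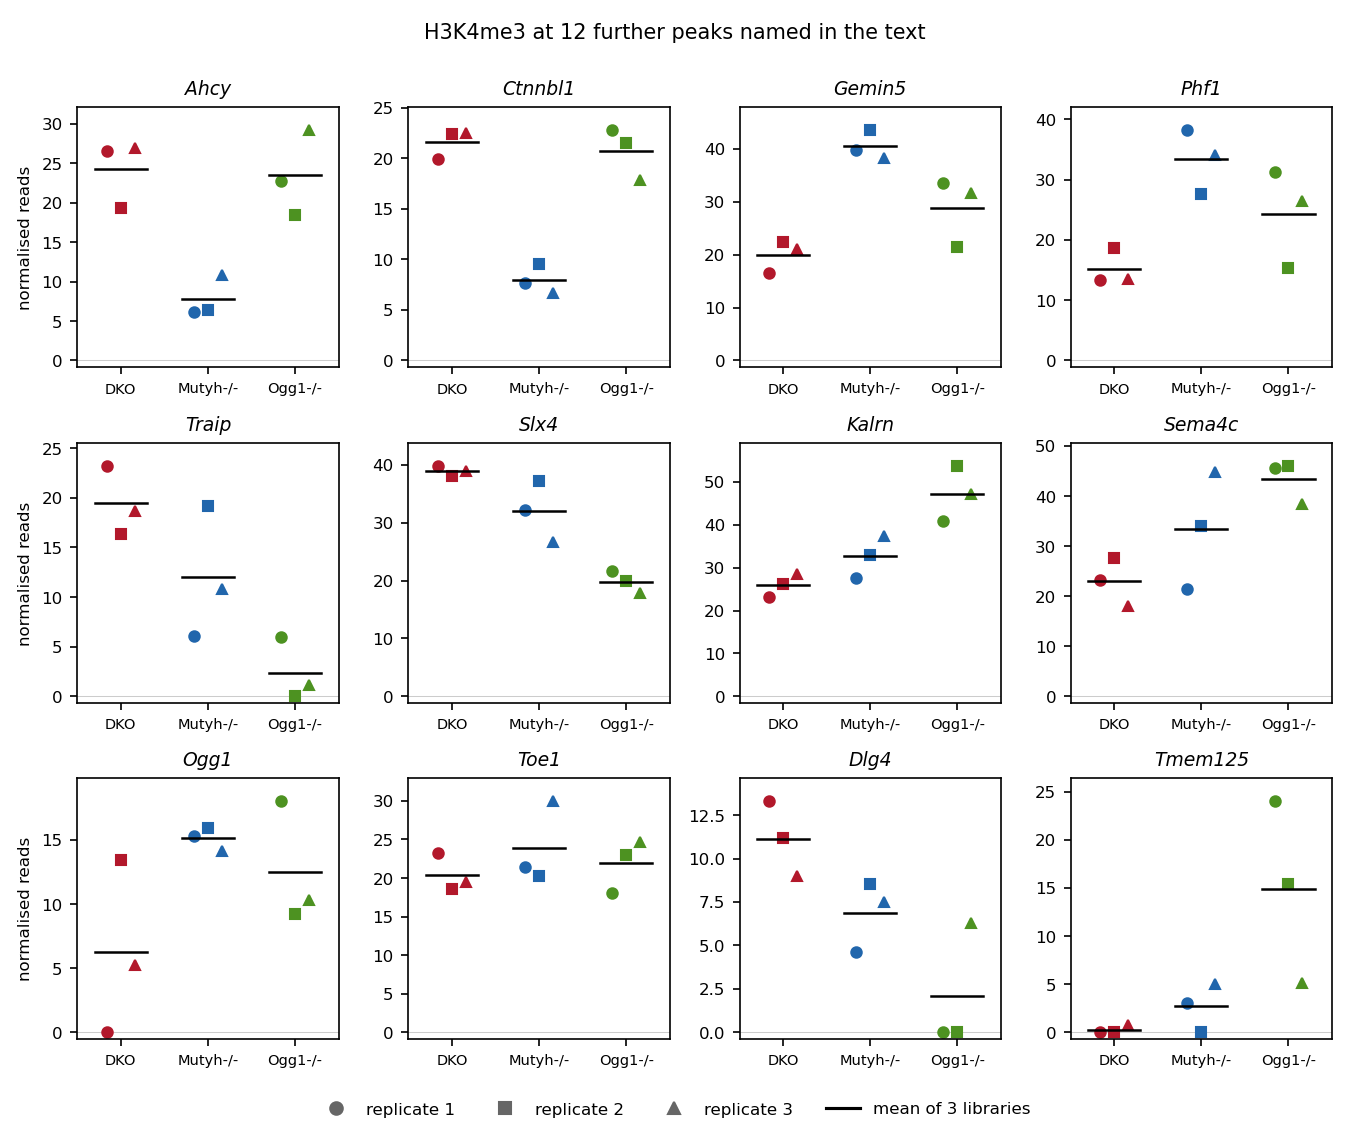
Normalised reads (y axis) of the 9 libraries by genotype (x axis) at 12 further peaks; points are libraries, their shape gives the replicate, and lines are means of 3 libraries. Ahcy and Ctnnbl1 show Mutyh-/- below both other genotypes, Traip and Slx4 show Ogg1-/- lowest, and at Tmem125 the DKO libraries are at or near 0 while Ogg1-/- spans 5.17 to 24.0.

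The Ogg1 promoter itself carried a peak, chr6:113326823-113327223, that spans the annotated start of the gene. It had 0, 13.4 and 5.24 normalised reads in DKO, 15.3, 15.9 and 14.1 in Mutyh-/- and 18, 9.22 and 10.3 in Ogg1-/-. The DKO values rest on 0, 18 and 7 reads. DKO was below all Mutyh-/- libraries and overlapped Ogg1-/-. For Ogg1 the log2 fold change was -1.85 (SE 0.82, a DER) against Mutyh-/- and -1.54 (SE 0.82, no DER) against Ogg1-/-. Without DKO replicate 1, which had no read there, the value against Mutyh-/- was -0.77, and with edgeR it was -0.93. The call was also lost without any single Mutyh-/- library (-1.88 to -1.81) or without Ogg1-/- replicate 1 (-1.86). No peak was assigned to Mutyh, whose start at chr4:116807723 lies 89 bases from a peak over the divergent promoter of Toe1, a gene for an RNA deadenylase. The Toe1 peak, chr4:116807234-116807634, held 23.3, 18.6 and 19.5 normalised reads in DKO, 21.4, 20.2 and 29.9 in Mutyh-/- and 18, 23 and 24.7 in Ogg1-/-. The 3 genotypes overlapped. For Toe1 the log2 fold change was -0.20 (SE 0.31, no DER) against Mutyh-/- and -0.09 (SE 0.31, no DER) against Ogg1-/-. Which exons the knockout alleles lack is not given in the sources used here, so neither promoter checks the genotypes.

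Genes of base excision repair, Ogg1 among them, had 18 peaks of 18 genes, 8 glycosylase genes and 10 genes of base processing, filling and ligation. Of these peaks, only that of Ogg1 was a DER against Mutyh-/- (5.56%, beside 4.24% of all peaks). None was a DER against Ogg1-/- (beside 4.38%). The next smallest p among them belonged to the glycosylase genes Neil1 and Nthl1. The Neil1 peak had 0, 20.9 and 12.7 normalised reads in DKO, 13.8, 27.6 and 18.3 in Mutyh-/- and 4.80, 21.5 and 11.5 in Ogg1-/-. Library spread within each genotype was as wide as the differences. For Neil1 the log2 fold change was -1.59 (SE 0.91, no DER) against Mutyh-/- and -0.81 (SE 0.91, no DER) against Ogg1-/-. For Nthl1 the values were -0.53 (SE 0.34) and -0.18. The median log2 fold change of the list was -0.10 against Mutyh-/- and -0.13 against Ogg1-/-, beside -0.02 over all peaks in either contrast. None of the 26 peaks of antioxidant defence genes was a DER in either contrast, where 4.24% and 4.38% of all peaks were, so a count of 0 says little of so short a list. The smallest p there were those of Sod1, the cytosolic superoxide dismutase (-0.52, SE 0.25 against Ogg1-/-), and Gsr, glutathione reductase (0.58, SE 0.29 against Ogg1-/-).

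Polycomb repressive complex 2 (PRC2) places H3K27me3, which opposes H3K4me3 at developmental genes. Of 13 peaks of 12 PRC2 genes, 1 was a DER against Mutyh-/- (7.69%, beside 4.24% of all peaks) and none was against Ogg1-/- (beside 4.38%). That peak was the promoter of Phf1, whose product is an accessory subunit that binds H3K36me3. The Phf1 peak, chr17:26933087-26933487, had 13.3, 18.6 and 13.5 normalised reads in DKO, 38.3, 27.6 and 34.1 in Mutyh-/- and 31.2, 15.4 and 26.4 in Ogg1-/-. DKO lay below Mutyh-/-, and Ogg1-/- replicate 2 fell within the DKO range. For Phf1 the log2 fold change was -1.09 (SE 0.33, a DER) against Mutyh-/- and -0.61 (SE 0.33, no DER) against Ogg1-/-. The median of the 6 peaks of accessory subunits was -0.58 against Mutyh-/- and -0.54 against Ogg1-/-, with 1 and 0 DERs, and that of the 7 peaks of core subunits was -0.05 and 0.10, with 0 DERs. The difference between accessory and core subunits was not tested. Among the accessory subunits, Phf19 had -0.70 (SE 0.40) and -0.58, and Mtf2 -0.60 (SE 0.46) and -0.78. These values for Phf19 and Mtf2 did not pass the DER definition.

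Genes listed for H3K4 methylation, from methyltransferase families, their partners and demethylases, had 20 peaks. Kmt2e was the only DER against Mutyh-/- (5%, beside 4.24% of all peaks), and none was against Ogg1-/- (beside 4.38%). Kmt2e, an MLL-family gene, held 16.6, 23.1 and 24 normalised reads in DKO, 35.2, 29.8 and 36.6 in Mutyh-/- and 26.4, 29.2 and 20.1 in Ogg1-/-. DKO was below Mutyh-/- and overlapped Ogg1-/-. For Kmt2e the log2 fold change was -0.66 (SE 0.28, a DER) against Mutyh-/- and -0.24 (SE 0.28, no DER) against Ogg1-/-. The call was lost without DKO replicate 1 (-0.50) or Mutyh-/- replicate 1 (-0.63) or 3 (-0.60). Setd1a, a SET1-family methyltransferase, had -0.72 (SE 0.35) against Mutyh-/-, and Hcfc1, a partner of these complexes, had -0.98 (SE 0.49) against Ogg1-/-, and neither was a DER. The medians of the list, -0.06 and -0.05, were close to those of all peaks.

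For axon guidance, 68 peaks of 60 genes held 2 DERs higher and 1 lower against Mutyh-/- (4.41%, beside 4.24% of all peaks), and 0 higher and 2 lower against Ogg1-/- (2.94%, beside 4.38%). Receptors gave all 3 of the first: Unc5a, a netrin receptor, and Plxna1, a semaphorin receptor, were higher, and Ephb2, an ephrin receptor of excitatory synapses, was lower. The Ephb2 peak, chr4:136835216-136835616, had 26.6, 24.6 and 35.2 normalised reads in DKO, 50.5, 46.8 and 44.9 in Mutyh-/- and 39.6, 38.4 and 32.7 in Ogg1-/-. The Mutyh-/- libraries were the 3 highest of the 9. For Ephb2 the log2 fold change was -0.71 (SE 0.22, a DER) against Mutyh-/- and -0.36 (SE 0.22, no DER) against Ogg1-/-. The peak in an intron of Unc5a, chr13:54955933-54956333, had 29.9, 18.6 and 15.7 normalised reads in DKO, 6.12, 9.57 and 7.48 in Mutyh-/- and 14.4, 12.3 and 20.1 in Ogg1-/-. DKO lay above Mutyh-/- and overlapped Ogg1-/-. For Unc5a the log2 fold change was 1.33 (SE 0.47, a DER) against Mutyh-/- and 0.41 (SE 0.47, no DER) against Ogg1-/-. The Unc5a call was lost without DKO replicate 1 (1.08). Plxna1 had a log2 fold change of 0.58 (SE 0.25). Against Ogg1-/-, the lower DERs were the ligand gene Sema4c and the ephrin receptor gene Epha4 (-1.15, SE 0.53). The Sema4c promoter, chr1:36557501-36557901, held 23.3, 27.6 and 18 normalised reads in DKO, 21.4, 34 and 44.9 in Mutyh-/- and 45.6, 46.1 and 38.5 in Ogg1-/-. DKO was below Ogg1-/- without overlap, and Mutyh-/- ranged across both. For Sema4c the log2 fold change was -0.48 (SE 0.28, no DER) against Mutyh-/- and -0.91 (SE 0.28, a DER) against Ogg1-/-.

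Glutamatergic synapse genes had 61 peaks of 43 genes, with 0 DERs higher and 3 lower against Mutyh-/- and 2 higher and 1 lower against Ogg1-/-. Each is 4.92% of the list, near the 4.24% and 4.38% of all peaks. Grm3, a metabotropic glutamate receptor gene, was lower against both. Its peak, chr5:9725340-9725740, had 9.97, 11.2 and 15.7 normalised reads in DKO, 36.7, 22.3 and 20.8 in Mutyh-/- and 15.6, 24.6 and 28.1 in Ogg1-/-. DKO lay below Mutyh-/- and overlapped Ogg1-/- at replicate 1 of that genotype. For Grm3 the log2 fold change was -1.03 (SE 0.38, a DER) against Mutyh-/- and -0.82 (SE 0.38, a DER) against Ogg1-/-. The call against Mutyh-/- was lost without Mutyh-/- replicate 1 (-0.78) and that against Ogg1-/- without each of 7 libraries in turn (-0.82 to -0.65). Dlg4 encodes PSD-95, the main scaffold of the postsynaptic density. The Dlg4 peak, chr11:70023920-70024320, had 13.3, 11.2 and 8.99 normalised reads in DKO, 4.59, 8.51 and 7.48 in Mutyh-/- and 0, 0 and 6.31 in Ogg1-/-. Reads were few, with 0 in Ogg1-/- replicates 1 and 2. For Dlg4 the log2 fold change was 0.65 (SE 0.93, no DER) against Mutyh-/- and 2.63 (SE 0.93, a DER) against Ogg1-/-. Grin2d, an NMDA receptor subunit gene, was higher in DKO than in Ogg1-/- by 1.23 (SE 0.50), a call lost without DKO replicate 1 (0.98), DKO replicate 3 (1.15) or Ogg1-/- replicate 3 (1.05). The postsynaptic scaffold genes Shank3 (-0.78, SE 0.36) and Dlgap1 (-1.97, SE 0.81) were lower against Mutyh-/-, and DKO replicate 1 had the lowest value of the 9 libraries at both, 9.97 at Shank3 and 0 at Dlgap1.

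Immediate early genes, which neuronal activity induces, had 38 peaks, with 1 DER higher against Mutyh-/- and 1 lower against Ogg1-/- (2.63% each, under the 4.24% and 4.38% of all peaks). The promoter of Jund, an AP-1 subunit, held 43.2, 47 and 41.9 normalised reads in DKO, 13.8, 37.2 and 18.3 in Mutyh-/- and 28.8, 49.2 and 41.3 in Ogg1-/-. The 3 DKO libraries lay above Mutyh-/-, and Ogg1-/- overlapped DKO. For Jund the log2 fold change was 1.02 (SE 0.31, a DER) against Mutyh-/- and 0.17 (SE 0.31, no DER) against Ogg1-/-. A distal peak 26123 bp from Egr1, a zinc finger factor of activity-dependent transcription, had 9.97, 8.95 and 16.5 normalised reads in DKO, 21.4, 20.2 and 19.1 in Mutyh-/- and 20.4, 26.1 and 21.8 in Ogg1-/-. DKO was below all 6 single-knockout libraries. For Egr1 the log2 fold change was -0.78 (SE 0.38, no DER) against Mutyh-/- and -0.93 (SE 0.38, a DER) against Ogg1-/-. The call against Ogg1-/- was lost without DKO replicate 2 (-0.77) or Ogg1-/- replicate 2 (-0.83) or 3 (-0.95). Of 6 peaks of myelin genes, 1 was a DER against Ogg1-/- (16.7%, beside 4.38% of all peaks) and none was against Mutyh-/-. That peak, at Mbp, was higher in DKO than in Ogg1-/- (0.58, SE 0.23). It had 36.5, 32.8 and 40.4 normalised reads in DKO, 30.6, 35.1 and 29.9 in Mutyh-/- and 25.2, 26.1 and 21.2 in Ogg1-/-. The call was lost without DKO replicate 3 (0.50) or Ogg1-/- replicate 3 (0.49). The median of the 6 peaks was -0.63 against Ogg1-/- and -0.30 against Mutyh-/-, and Mbp itself lay above 0 in both (0.58 and 0.19). Mbp is a marker of oligodendrocytes, and the summed non-neuronal markers were lowest in Ogg1-/- replicate 2, at 90.6. Their part in this result was not tested.

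Nuclear-encoded genes of oxidative phosphorylation had 77 peaks of 75 genes, with 2 DERs higher and 3 lower against Mutyh-/- (6.49%, beside 4.24% of all peaks) and 4 higher and 3 lower against Ogg1-/- (9.09%, beside 4.38%). These shares were not tested against those of all peaks. The calls were spread over complexes. Beside Uqcrc2, Ndufs6 of complex I was higher than in Mutyh-/- (0.72, SE 0.27), and Uqcrc1 of complex III (-0.59, SE 0.22), Atp5l of the ATP synthase (-0.57, SE 0.25) and the complex II assembly factor Sdhaf3 (-0.69, SE 0.30) were lower. The core subunits of complex III thus had opposite signs against Mutyh-/-, Uqcrc2 higher and Uqcrc1 lower. The Uqcrc2 and Ndufs6 calls held without each library in turn. Without DKO replicate 1, Uqcrc1, Atp5l and Sdhaf3 were at -0.49, -0.51 and -0.51 against Mutyh-/-, and none was a DER. Against Ogg1-/-, Ndufb2, Ndufb6 (0.72, SE 0.24), Atp5g2 (1.00, SE 0.34) and Cox7c (0.52, SE 0.21) were higher and Uqcrc1 (-0.54, SE 0.22), Atp5d (-0.80, SE 0.33) and Sdhaf3 (-0.68, SE 0.30) lower. Of these calls, Uqcrc1 and Sdhaf3 were lost without DKO replicate 1 (-0.44 and -0.50), and Cox7c and Atp5d without DKO replicate 2 (0.49 and -0.80). Those of Ndufb2, Ndufb6 and Atp5g2 held without each library in turn. Ribosomal protein genes had 62 peaks, of which 3.23% were DERs against Mutyh-/- and 1.61% against Ogg1-/-, under the 4.24% and 4.38% of all peaks. These were Rpl27a, higher (0.65, SE 0.24), and Rpl9, lower (-0.92, SE 0.43), against Mutyh-/- and Rpsa, higher against Ogg1-/- (0.54, SE 0.24). Without DKO replicate 1 these became 0.50, -0.35 and 0.39, none a DER. Rpl27a was also lost without Mutyh-/- replicate 3 (0.57), Rpsa without DKO replicate 3 (0.53) or Ogg1-/- replicate 1 or 3 (0.45 and 0.56), and Rpl9 without 8 of the 9 libraries in turn (-1.0 to -0.35).

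Developmental transcription factor genes outside the Hox clusters had 87 peaks of 73 genes, and no Hox gene had a peak. Of the 87 peaks, 4.6% were DERs against Mutyh-/- and 2.3% against Ogg1-/-, beside 4.24% and 4.38% of all peaks. Against Mutyh-/-, Foxp1 (0.82, SE 0.30) and Foxj2 (2.28, SE 0.83) were higher and Six4 (-0.72, SE 0.31) was among those lower. Against Ogg1-/-, Foxk2 (-0.58, SE 0.25) and Pax3 (-1.93, SE 0.81) were lower and none was higher. The Pax3 peak, which overlaps a Suz12 peak of NeuN+ nuclei, had 0, 8.20 and 7.49 normalised reads in DKO, 23, 10.6 and 8.32 in Mutyh-/- and 12, 18.4 and 16.1 in Ogg1-/-. DKO was below all 6 single-knockout libraries. For Pax3 the log2 fold change was -1.69 (SE 0.81, no DER) against Mutyh-/- and -1.93 (SE 0.81, a DER) against Ogg1-/-. It had 0 reads in DKO replicate 1, and the call was lost without that library (-0.89) or without Ogg1-/- replicate 2 or 3 (-1.82 and -1.85). The Foxp1 call was lost without DKO replicate 1 (0.61) or Mutyh-/- replicate 1 (0.63), and the Foxj2 call without Mutyh-/- replicate 1 (1.22). The Foxj2 peak had 19.9, 16.4 and 24.7 normalised reads in DKO and 0, 18.1 and 3.33 in Mutyh-/-, so the groups overlapped.

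Wnt pathway genes had 55 peaks of 47 genes, with 1 DER higher against Mutyh-/- (1.82%, beside 4.24% of all peaks), and 2 higher and 1 lower against Ogg1-/- (5.45%, beside 4.38%). The ligand gene Wnt11 gave the first, at a distal peak upstream of the gene. It held 26.6, 17.9 and 9.74 normalised reads in DKO, 6.12, 0 and 3.33 in Mutyh-/- and 9.60, 15.4 and 5.74 in Ogg1-/-. DKO lay above Mutyh-/- and overlapped Ogg1-/-. For Wnt11 the log2 fold change was 2.5 (SE 0.81, a DER) against Mutyh-/- and 0.75 (SE 0.81, no DER) against Ogg1-/-. Against Ogg1-/-, Lef1, a nuclear partner of beta-catenin (2.24, SE 0.87, at a distal peak upstream), and Rspo2, a secreted enhancer of Wnt signalling (0.72, SE 0.31), were higher and Apc was lower, as above. The Lef1 peak had 9.97, 11.2 and 19.5 normalised reads in DKO and 1.2, 0 and 10.9 in Ogg1-/-, so the groups overlapped. Lef1 was no DER without DKO replicate 3 (1.93) or Ogg1-/- replicate 1 (2.03) or 2 (1.47). Of the 11 genes with a peak among those that the study names, with 14 peaks, Sema4c against Ogg1-/- was the 1 DER (7.14%, beside 4.38% of all peaks). For the others the log2 fold changes against Mutyh-/- ranged from -0.76 (Wnt6) to 0.40 (the second Wnt6 peak), and against Ogg1-/- from -0.66 (Wnt6) to 0.44 (Grin1 and Camk2a). Bdnf, a neurotrophin gene, had -0.04 and -0.55 against Mutyh-/- at its 2 peaks, and Rbfox3, the gene for NeuN, had 0.17 and 0.32.

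Outside the peaks picked by rule, 17 further calls of list members were DERs, and 15 of them were lost without at least 1 library, 12 without DKO replicate 1. The other 2, Ndufs6 against Mutyh-/- and Atp5g2 against Ogg1-/-, held without each library in turn. Without DKO replicate 1, Epha4 was at -0.38 against Ogg1-/-, and Plxna1, Shank3 and Dlgap1 were at 0.44, -0.39 and -0.82 against Mutyh-/-.

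**Figure D4:**
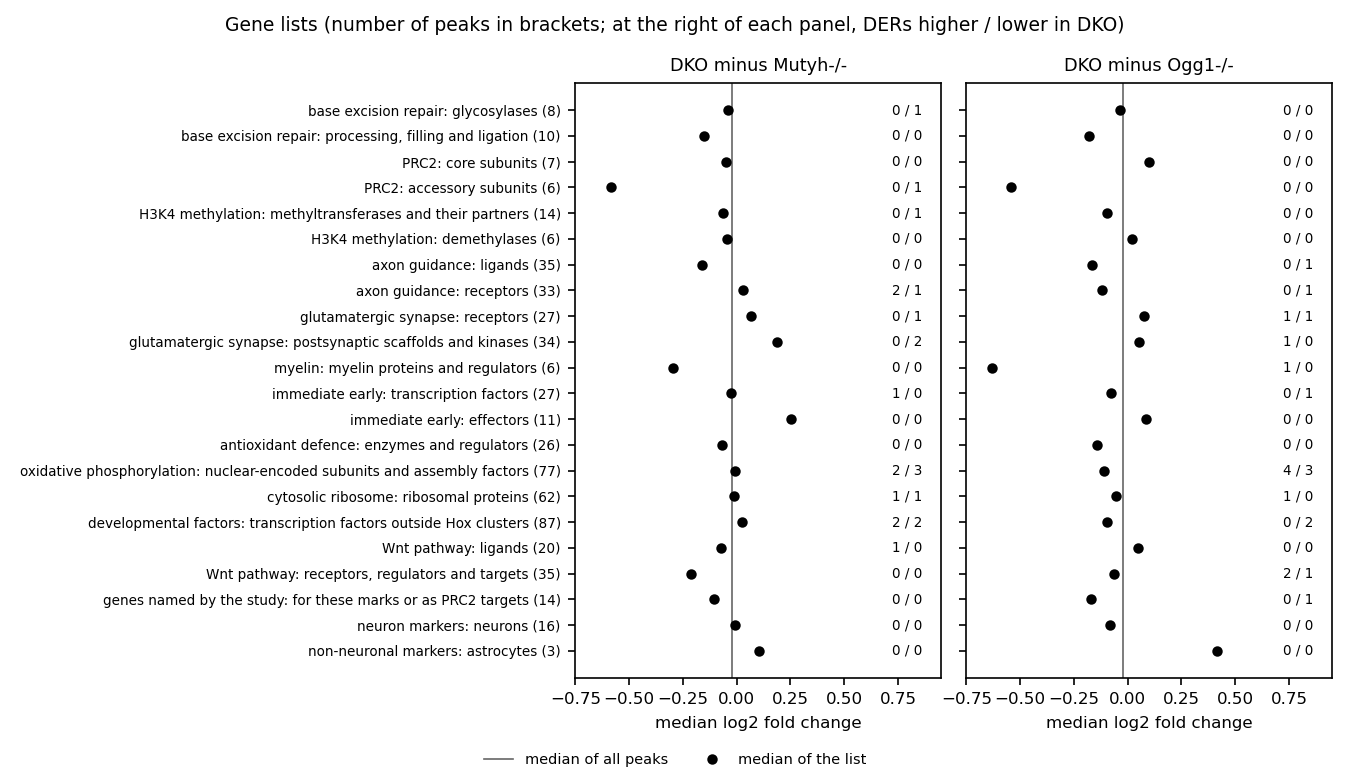
Median log2 fold change of the peaks of each gene list (x axis, points) for DKO minus Mutyh-/- at the left and DKO minus Ogg1-/- at the right; the grey line is the median of all 12628 peaks (-0.02), and the numbers at the right give DERs higher / lower in DKO. The 6 peaks of PRC2 accessory subunits lie at -0.58 and -0.54 and the 6 myelin peaks at -0.30 and -0.63, whereas the medians of lists with more than 20 peaks lie nearer to the line.

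The DERs were spread over kinds of peak. Of the 11771 promoter peaks, 4.24% were DERs against Mutyh-/- and 4.34% against Ogg1-/-, beside 4.20% and 4.90% of the 857 other peaks. Shares of DERs by quartile of GC content ran from 3.79% to 4.63% against Mutyh-/- and from 4.10% to 4.70% against Ogg1-/-. They were 3.01% and 3.20% in the quartile of peaks with the lowest mean level and 5.07% and 4.59% in the highest. Median CpG per peak was 36.5 and 36 in DERs higher and lower against Mutyh-/-, and 33 and 36 against Ogg1-/-, beside 35 in all peaks. Peaks that overlap a Suz12 peak of NeuN+ nuclei (235 peaks) held 4 DERs (1.70%, beside 4.24% of all peaks) against Mutyh-/-, all lower in DKO. Against Ogg1-/- they held 19 DERs (8.09%, beside 4.38%), 10 higher and 9 lower. Those that overlap an H3K27me3 peak (200 peaks) held 9 (4.5%) and 14 (7%). Within 5 Mb of Ogg1, where DKO and Mutyh-/- carry different alleles, 4 of 59 peaks (6.78%, beside 4.24%) were DERs against Mutyh-/-. Within 5 Mb of Mutyh, 3 of 87 (3.45%, beside 4.38%) were DERs against Ogg1-/-. None of the shares by kind of peak, overlap or flank was tested against those of all peaks.

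Near Ogg1, the leading DER against Mutyh-/- was Brpf1, a subunit of a histone acetyltransferase complex, whose peak chr6:113307279-113307679 lies upstream of Ogg1. It had 23.3, 34.3 and 44.2 normalised reads in DKO, 58.2, 47.8 and 49.9 in Mutyh-/- and 40.8, 50.7 and 37.9 in Ogg1-/-. DKO lay below Mutyh-/- and overlapped Ogg1-/-. For Brpf1 the log2 fold change was -0.64 (SE 0.25, a DER) against Mutyh-/- and -0.37 (SE 0.25, no DER) against Ogg1-/-. Without DKO replicate 1 it was -0.40 and without Mutyh-/- replicate 1 -0.56, and neither was a DER. Vgll4, a cofactor of TEAD factors, had -1.04 (SE 0.42) against Mutyh-/-, and the call was lost without DKO replicate 1 (-0.62), DKO replicate 2 (-0.95), Mutyh-/- replicate 1 (-1.03) or 3 (-0.94). Near Mutyh, the leading DER against Ogg1-/- was the Tmem125 tandem repeat, 1740152 bp from the start of Mutyh. It held 0, 0 and 1 reads in DKO, 2, 0 and 6 in Mutyh-/-, and 20, 10 and 9 in Ogg1-/-. After scaling it had 0, 0 and 0.749 normalised reads in DKO, 3.06, 0 and 4.99 in Mutyh-/- and 24, 15.4 and 5.17 in Ogg1-/-. DKO and Ogg1-/- did not overlap, and Mutyh-/- reached up to 4.99, just under the lowest Ogg1-/- library. For Tmem125 the log2 fold change was -1.27 (SE 1.08, no DER) against Mutyh-/- and -3.5 (SE 1.08, a DER) against Ogg1-/-. The other tables held reads at the same repeat: for H3K4me3 in NeuN- nuclei 4, 2 and 0 in DKO, 0, 0 and 1 in Mutyh-/- and 7, 11 and 7 in Ogg1-/-, and for Suz12 in NeuN+ nuclei 1, 0 and 2, then 4, 0 and 3, then 10, 0 and 13. Before scaling, each Ogg1-/- library had more reads there than any DKO or Mutyh-/- library in both H3K4me3 fractions. After scaling, the closest values in NeuN+ nuclei were 5.17 and 4.99, and for Suz12 the genotypes overlapped. A link to the Mutyh locus was not tested. WT had 10, 10 and 0 reads in NeuN+ and 4, 14 and 7 in NeuN- nuclei. Ppih (-0.75, SE 0.31) and Pomgnt1 (0.78, SE 0.35) were the other DERs there, both lost without DKO replicate 1 (-0.50 and 0.70) or another library (-0.78 to -0.73 for Ppih and 0.66 to 0.78 for Pomgnt1).

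H3K4me3 of NeuN- nuclei, measured in other libraries of the same genotypes, had a peak at 3000 of the 12628 positions. Over all of these, the contrast with Mutyh-/- had the same sign in NeuN- as in NeuN+ nuclei at 49.7%, and that with Ogg1-/- at 50.0%. Of the NeuN+ DERs among them, 66 of 148 (44.6%) had the same sign against Mutyh-/- and 55 of 143 (38.5%) against Ogg1-/-, and 1 peak was a DER in both fractions in each contrast. Dusp8, the leading NeuN+ peak, had -0.43 against Mutyh-/- and 0.05 against Ogg1-/- in NeuN- nuclei. For Apc the values in NeuN- nuclei were 0.41 and 0.80, and for Borcs6 0.06 and 0.27. Differences between the fractions were not tested.

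DKO replicate 1, the shallowest library, moved the counts in one direction and the other DKO libraries in the opposite direction. Without it, 386 peaks (186 higher, 200 lower) were DERs against Mutyh-/- and 403 (200 higher, 203 lower) against Ogg1-/-, and 195 and 223 of these were among the DERs of all 9 libraries. Without DKO replicate 2 there were 858 and 885, and without DKO replicate 3 there were 923 and 936, most of them lower in DKO (616 and 616, then 657 and 675). The median DER lower in DKO had 3 reads in DKO replicate 1 against Mutyh-/- and 4 against Ogg1-/-, the median higher DER had 12 and 11, and the median peak had 7. With the size factors that the authors applied, 114 and 166 peaks were DERs, of which 53.5% and 21.7% were higher in DKO, beside 44.9% and 46.3% with TMM. Over 146 calls of named peaks, 107 remained without DKO replicate 1, 125 to 134 without another library, and none changed its direction. Dusp8 and Stum remained DERs in all 3 contrasts under every alternative tried and without any single library. Both were picked by their rank in these same libraries, so this is no independent check of them.

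**Figure D5:**
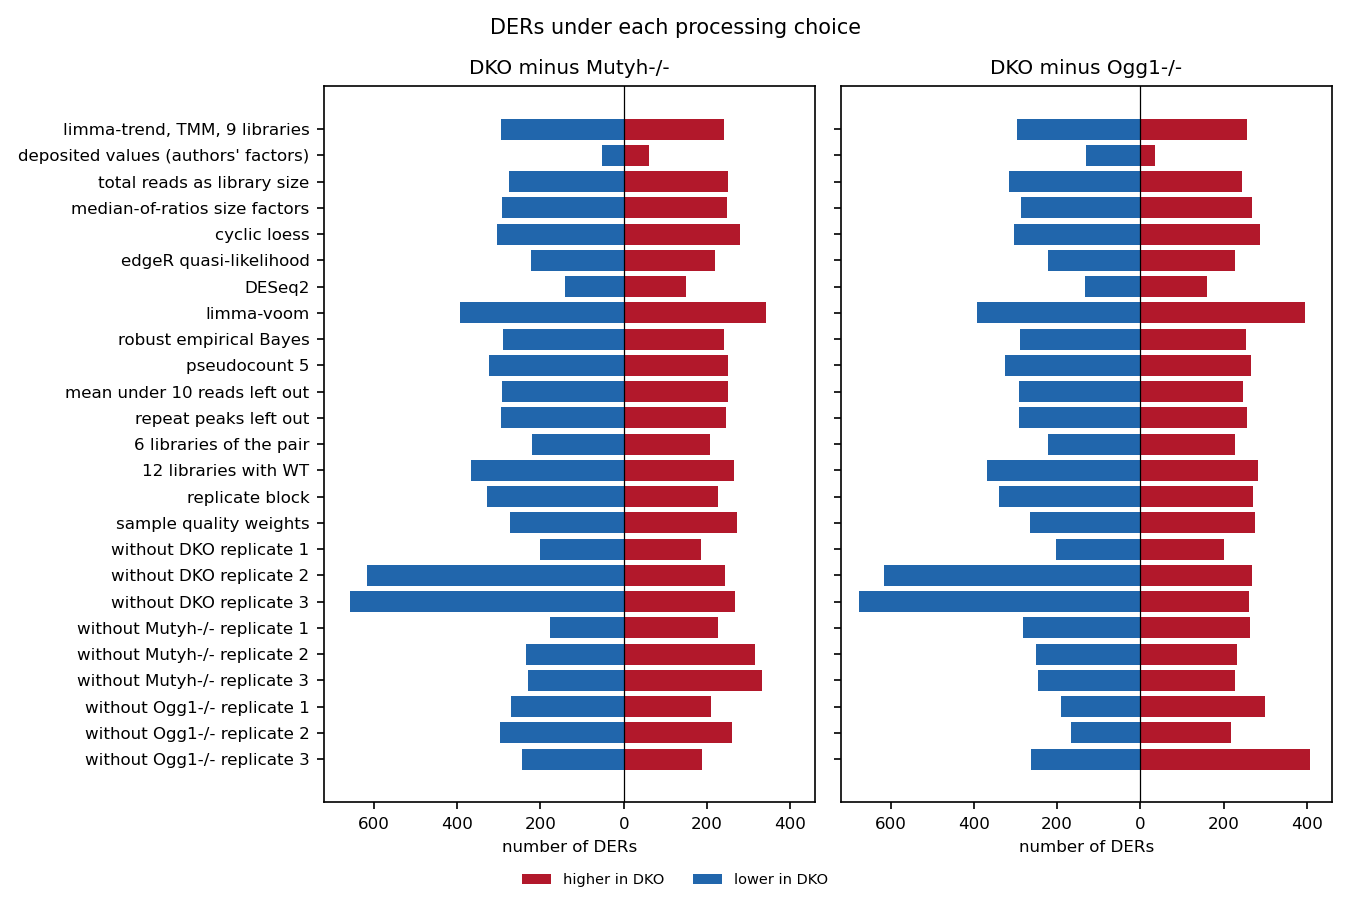
Number of DERs (x axis) higher in DKO (red, right of 0) and lower in DKO (blue, left of 0) for DKO minus Mutyh-/- and DKO minus Ogg1-/- under each processing choice (y axis, the first as reported). Bars without DKO replicate 2 or 3 extend furthest to the left, 616 to 675 DERs lower in DKO, and the authors' factors give the shortest bars.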

How the data were processed

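ChIP-seq with an H3K4me3 antibody was done on nuclei sorted by NeuN. Per the labels, single-end reads were mapped by the authors with Bowtie2 (2.3.5.1) on GRCm38, peaks were called with SICER (the methods name epic2, an implementation of SICER), and the authors counted reads in 401 bp peaks with DiffBind (3.10.1) and annotated them with ChIPseeker (1.36). Treatment of duplicates and subtraction of input are not given in the sources used here. The deposited values are a normalised signal, reads per peak divided by 1 factor per library, so all values of a library were whole multiples (tolerance 0.001) of its smallest value, and whole reads were recovered. The 24 per-sample columns of 2 further tables were not used.

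Recovered reads were scaled by TMM factors (edgeR 4.0.16). log2(normalised reads + 1) was fitted with limma-trend (3.58.1, R 4.3.3), genotype as the only term and 9 libraries in one fit (6 residual and 10.4 prior degrees of freedom). Alternatives were other scalings, edgeR's quasi-likelihood test, DESeq2 (1.42.0), voom, other filters and sets of libraries, a replicate block, and leaving out each library. Sample quality weights were added after the depth of DKO replicate 1 was seen. Steps were tested on simulated data. Totals were compared by exact permutation (scipy 1.17.1).

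Named peaks were the 10 higher and 10 lower with the smallest p among DERs with a mean of at least 10 normalised reads and groups that did not overlap, Ogg1 and Mutyh, the genes named by the study, and up to 3 members of each list with the smallest p. Other DERs of the lists were named after their values were seen. A few items that these rules pick are not reported here. The members and lists were chosen with earlier results of these data known.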

Additional observations from a re-analysis of the deposited data

Results flagged for a closer look

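At 2 named promoters the contrast of DKO with Mutyh-/- went one way in every NeuN+ library and the other way in every NeuN- library, and the difference between the fractions was not tested. For Hipk1 the log2 fold change was 0.73 in NeuN+ and -1.21 in NeuN- nuclei, where the libraries held 5.71, 3.50 and 6.55 normalised reads in DKO and 12.3, 8.95 and 20.5 in Mutyh-/-. For Grm3 it was -1.03 in NeuN+ and 1.15 in NeuN- nuclei, with 9.52, 17.5 and 9.82 normalised reads in DKO and 6.51, 1.79 and 8.18 in Mutyh-/-. Neither NeuN- contrast was a DER.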

How the results depend on the processing

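With the authors' factors the DERs numbered 114, 166 and 170 (against Mutyh-/-, Ogg1-/- and the mean of both), and with DESeq2 290, 294 and 293, with 6 peaks at an adjusted p under 0.05 against Ogg1-/-. The cause was not tested. The share of DERs higher in DKO against the mean of both was 32.3% as reported, 14.7% with the authors' factors, 49.7% with edgeR, 53.2% with DESeq2 and 54.8% with voom. Leaving out 1 library gave 386 to 923, 384 to 936 and 326 to 1097 DERs, and no setting but DESeq2 gave a peak at an adjusted p under 0.05. The log2 ratio of total reads in peaks ranged from -0.20 to 0.51 against Mutyh-/- and from -0.39 to 0.42 against Ogg1-/- and changed sign: it was -0.18 and -0.20 without DKO replicates 2 and 3 and -0.10 without Mutyh-/- replicate 1, and 0.32 without DKO replicate 1 and 0.42 without Ogg1-/- replicate 3. Deviations from the group mean correlated at -0.02 to 0.08 between libraries with the same number. Libraries with different numbers were not compared, so this does not settle whether the numbers pair them. A replicate block gave 555, 609 and 657 DERs. Of 146 calls of named peaks, 79 were kept with the authors' factors, 125 with edgeR, 122 with DESeq2, 117 with voom, 121 with sample quality weights and 139 to 146 with the other scalings, filters, pseudocount and block where all 9 libraries and peaks were used, and none reversed. At the depth of DKO replicate 1 a read is worth 3.32 normalised reads, which limits what low peaks can show.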

Other observations

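The 6 peaks that DESeq2 called against Ogg1-/- were nearest to Gm5458, Lrrc4c (2 peaks), Chl1, Mir101c and Pak3, and 22.9% to 95.3% of their bases were masked as repeats. They held reads in a few libraries only: 549 in DKO replicate 1 (0.572% of its reads), 1326 in DKO replicate 3 (0.310%), 2131 in Mutyh-/- replicate 1 (0.979%), 2001 in WT replicate 2 (0.848%) and 428, at 3 of the peaks, in WT replicate 1 (0.16%). DKO replicate 2 and the other libraries of the table had 0 reads there, so DKO overlapped Ogg1-/- at each of the 6 peaks. With limma the adjusted p was 0.886 at each of them.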
